A study of Mus musculus with 10 samples.

Results

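The genes that encode the proteasome, the protease complex that degrades ubiquitin-tagged proteins, were taken from a map of N6-methyladenosine (m6A) in cultured mouse hypothalamic neural progenitor cells. The members were all RefSeq protein-coding genes whose symbol starts with Psm, a letter from a to g and a number, which gave 51 of 21900 protein-coding genes. Of these, 19 encode the core particle, 26 belong to the regulatory side, 4 encode core assembly chaperones, and 2 (Psmc3ip and Psme3ip1) encode partners named for a subunit. The regulatory side includes the 3 base chaperones Psmd5, Psmd9 and Psmd10, while the core assembly chaperones were kept apart from the core. A peak was given to a gene when the overlap covered at least 50% of the shorter span, peak or gene, on the strand with more immunoprecipitated (IP) reads. By this rule 25 members held 37 of the 21195 deposited peaks.

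The proteasome has a barrel-shaped core particle made of outer alpha rings (Psma genes) and inner beta rings (Psmb genes), with the proteolytic sites on some of the beta subunits. A regulatory particle caps the barrel, and its ATPases (Psmc genes) unfold the substrate and open the gate. Its non-ATPase subunits (Psmd genes) include those that bind and remove ubiquitin, and some Psmd genes encode chaperones instead. Activators of the Psme group can cap the core in place of this particle. In the cell m6A is written on mRNA mainly by the Mettl3 and Mettl14 complex and is known to affect mRNA decay and translation, and neural progenitors rely on the proteasome to turn over cell cycle and fate regulators.

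All cells carried floxed Mettl14 alleles (Mettl14f/f), came from the hypothalamus of embryos at day E14.5 and were grown with FGF2 and EGF at 20 ng/ml each. The control group received lenti-EGFP and the Mettl14 Knockout group lenti-EGFP-Cre, whose Cre recombinase cuts out the floxed stretch of the gene, and EGFP-positive cells of both groups were sorted after 72 hours. Each genotype had 4 m6A IP libraries and 1 input library, and whether the 4 came from separate cultures is not stated in the labels. The peak table has 1 column of input reads and 1 of IP reads with no genotype or library, so knockout and control were not compared and no value below has an SD or a replicate check.

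Over all peaks the table holds 26.6 M input and 72.3 M IP reads (M for mega), and the depth of single libraries is unknown. Enrichment below means the log2 fold change of IP over input as the authors deposited it. IP per input read is the plain ratio of the deposited counts without depth correction, and the values in brackets after it are its exact 95% interval, which covers counting error only and takes the deposited numbers as summed reads. The proteasome peaks took 0.456% of the input and 0.370% of the IP reads. Of 11 progenitor markers 7 held a peak (Sox2, Nes, Notch1, Pax6, Hes1, Sox9 and Slc1a3), and Fabp7, Hes5, Msi1 and Vim did not. Of the markers of other cell types 5 of 6 held a peak for the oligodendrocyte lineage (among them Olig1, Olig2, Pdgfra and Cspg4), 3 of 6 for neurons (Map2, Rbfox3 and Tubb3), 1 of 5 for endothelium and pericytes (Kdr), and 0 of 7 for microglia and other immune cells, and of 7 hypothalamic region markers 4 did, where 44.2% of all protein-coding genes held one. The strongest peaks of Olig1 and Olig2 had 231319 and 228230 IP reads, more than any proteasome peak, and their part in the results was not tested. A gene without a peak may still be expressed, since the files list reads in peaks only.

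At the 5' end of genes the peaks of Psmc1, Psmd4 and Psme4 began close to the annotated start. The 100 bases before each RefSeq start (GRCm38.p6, 5' to 3' on the strand of the gene) are shown to place these peaks, with the bases that lie inside the m6A peak in capitals. The stretches are chr12:100110102-100110201 on the plus strand for Psmc1, chr3:95042615-95042714 on the minus strand for Psmd4, and chr11:30771675-30771774 on the plus strand for Psme4.
Psmc1: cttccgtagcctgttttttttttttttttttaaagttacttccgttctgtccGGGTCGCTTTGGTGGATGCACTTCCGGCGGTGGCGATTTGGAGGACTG
Psmd4: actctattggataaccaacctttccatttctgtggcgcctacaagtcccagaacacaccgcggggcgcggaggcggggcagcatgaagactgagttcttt
Psme4: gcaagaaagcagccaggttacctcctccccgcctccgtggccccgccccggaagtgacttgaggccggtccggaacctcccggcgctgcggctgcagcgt

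The Psmc1 peak reached 48 bases upstream of the RefSeq start, while those of Psmd4 and Psme4 began 8 and 26 bases after it. The motif GGAC, the core of the usual m6A sequence context, was searched on both strands of the RefSeq promoter windows, which run from 250 bases before to 50 bases after a start. On the transcript strand the Psmc1 window held it once, beginning 6 bases before the start and inside the peak, and the Psmd4 and Psme4 windows did not hold it. On the other strand each of the 3 windows held it 2 times. Of all 32851 windows 65.6% held GGAC on the transcript strand and 66.1% on the other, so its presence is common. The windows covered 98 of the 178 bases of the Psmc1 peak, 42 of 5962 for Psmd4 and 24 of 175 for Psme4. The rest of these peaks was not searched.

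Most regulatory genes held a peak and most core genes did not. Of the 26 regulatory genes 17 had one (65.4%), and of the 19 core genes 5 (26.3%), where 44.2% of all protein-coding genes had one by the same rule. Over all 51 members the share was 49.0%, near this background. Of the 5 core peaks the one given to Psmb10 lay on the strand opposite to the gene, and without it 4 of 19 remain (21.1%). With only peaks on the RefSeq strand, where that is known, 43.5% of all protein-coding genes had one. Of the 17 regulatory genes Psmd13 held its peak inside the pseudogene Gm15542, and without it 16 remain (61.5%). With only peaks that no other RefSeq gene of any biotype shares, 39.5% of all protein-coding genes had one. When only peaks with an enrichment of at least the median of the table were kept, 9 regulatory genes (34.6%) and 2 core genes (10.5%) had one, against 29.9% of all protein-coding genes. At this threshold the regulatory share lay near that of all genes, and the 9 still include Psmd13 with its peak inside the pseudogene. Genes are not replicates, so these shares are given as a description without a test.

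**Figure D1:**
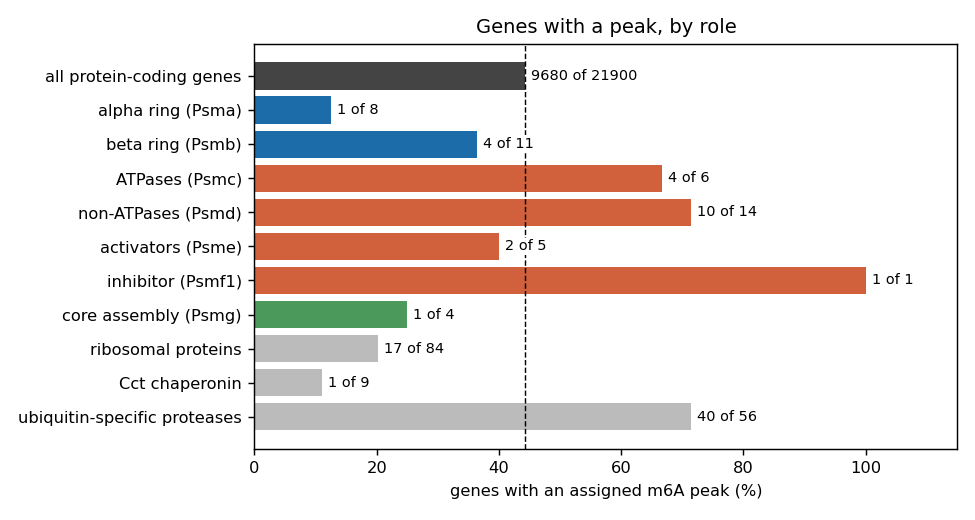
Bars show the percentage of genes of each group that held an assigned m6A peak, with the counts beside them, and the dashed line marks the 44.2% of all protein-coding genes. The alpha ring is at 1 of 8 genes, while ATPases and non-ATPases are at 4 of 6 and 10 of 14, and the ribosomal protein, Cct chaperonin and ubiquitin-specific protease genes in grey are shown for comparison.

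The median gene span was 10.1 kb for core and 12.7 kb for regulatory genes, against 17.1 kb for all protein-coding genes, and the share of all genes with a peak was larger for longer genes. Among genes of 10 to 20 kb, 7 of 8 regulatory and 0 of 3 core genes held a peak, against 45.3% of all protein-coding genes of that span, and 6 of 8 without the Psmd13 peak. Among genes of 5 to 10 kb the counts were 6 of 9 regulatory and 1 of 3 core genes, against 35.9%. In genes of up to 5 kb they were 0 of 3 regulatory and 2 of 6 core genes, against 18.2%, and 1 of 6 core genes (16.7%) without the opposite-strand peak of Psmb10. From 20 to 50 kb they were 2 of 3 regulatory and 1 of 5 core genes, against 52.6%, and above 50 kb 2 of 3 and 1 of 2, against 66.1%. The regulatory share was thus above that of all genes in the bins between 5 and 50 kb, near it above 50 kb and below it up to 5 kb, and each bin holds at most 9 regulatory and 6 core genes.

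The alpha ring, which forms the gate of the barrel, held a peak in 1 of 8 genes. That gene was Psma4, with 13242 IP against 5534 input reads at chr9:54956338-54958030, or 2.39 IP per input read (2.32 to 2.47), and the authors' deposited table put its enrichment at 3.20. The peak covered the last part of the gene and ended 4 bases before its 3' end. Psma1, Psma2, Psma3, Psma5, Psma6, Psma7 and the testis form Psma8 had no peak. A peak on the minus strand overlapped the plus-strand gene Psma5 by 59 bases of its 8076 and was not given to it.

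In the beta rings the strongest peak was that of Psmb6, which encodes the caspase-like catalytic subunit. Its 75-base peak at chr11:70527712-70527786 had 2096 IP against 623 input reads, or 3.36 IP per input read (3.08 to 3.69), and the authors' deposited table put its enrichment at 4.45. This was above 90.9% of all peaks. Psmb7, the trypsin-like subunit, had 10364 IP against 6942 input reads at chr2:38588036-38588110, or 1.49 IP per input read (1.45 to 1.54), and the authors' deposited table put its enrichment at 2.65. Read along the minus strand of the peak, it lay at the very 3' end of Psmb7, for which no RefSeq strand was at hand. There a plus-strand peak of 199 IP against 216 input reads overlapped the gene by 47 bases. Psmb7 has pseudogene copies, and whether reads matching several copies were counted is not stated. Psmb1, a structural beta subunit, had 3608 IP against 3643 input reads at chr17:15475596-15476020, or 0.990 IP per input read (0.946 to 1.04), and the authors' deposited table put its enrichment at 1.97. The intervals for Psmb6, Psmb7 and Psmb1 did not overlap.

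The remaining constitutive beta genes, Psmb2, Psmb3, Psmb4 and the chymotrypsin-like subunit Psmb5, had no peak. Neither did the immunoproteasome genes Psmb8 and Psmb9, whose products replace catalytic subunits in immune cells, nor the thymus form Psmb11. For the remaining immunoproteasome gene, Psmb10, the rule picked a plus-strand peak of 10877 bases (chr8:105934333-105945209), while Psmb10 lies on the minus strand. This peak also met the overlap part of the rule for Lcat and touched Slc12a4. It had 1342 IP against 528 input reads, and the authors' deposited table put its enrichment at 2.84. These reads come from the opposite strand and are no measure of Psmb10 mRNA.

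**Figure D2:**
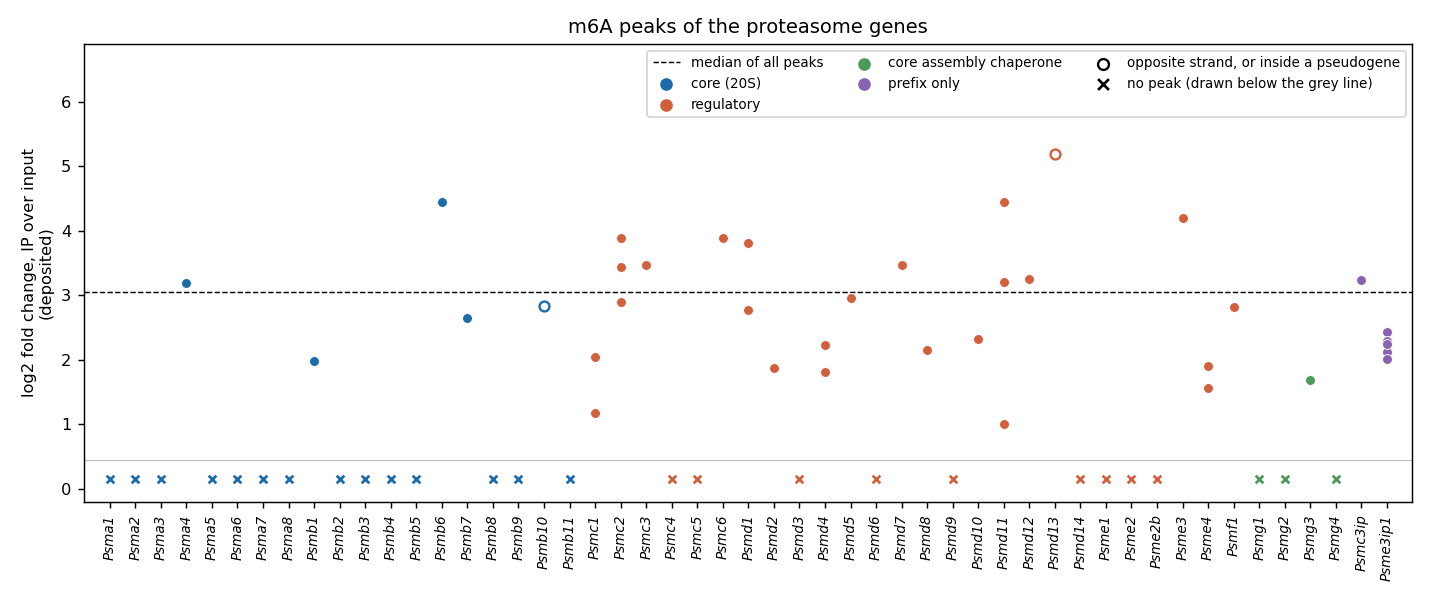
Each dot is a peak of a proteasome gene, with the deposited log2 fold change of IP over input (enrichment) on the vertical axis and the genes along the horizontal axis, and crosses mark genes without a peak. Regulatory genes carry most of the dots, the open circles are the opposite-strand peak of Psmb10 and the Psmd13 peak inside a pseudogene, and the dashed line is the median of all peaks, 3.06.

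Among the ATPases, which form the unfolding ring of the regulatory particle, Psmc1, Psmc2, Psmc3 and Psmc6 held peaks and Psmc4 and Psmc5 did not. Psmc2 had 3 peaks spread along the gene. The one nearest the 5' end (chr5:21785483-21794157) had 1770 IP against 522 input reads, or 3.39 IP per input read (3.07 to 3.75), and the authors' deposited table put its enrichment at 3.89. The middle one had 421 IP against 258 input reads, or 1.63 IP per input read (1.39 to 1.91), and the 75-base one at the 3' end had 10853 against 6470, or 1.68 IP per input read (1.63 to 1.73). In the authors' deposited table these had an enrichment of 3.44 and 2.90. By reads the 5' peak thus stood above the others, whose intervals overlapped.

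Psmc3 had 17037 IP against 4518 input reads in the first part of the gene (chr2:91054384-91055559), or 3.77 IP per input read (3.65 to 3.90), and the authors' deposited table put its enrichment at 3.47. Psmc6 had 751 IP against 387 input reads at chr14:45330520-45330877, or 1.94 IP per input read (1.71 to 2.20), and the authors' deposited table put its enrichment at 3.88. Psmc3 was thus the higher of these by reads and Psmc6 by the deposited fold change. The Psmc1 peak at its start (chr12:100110154-100110331) had 272 IP against 171 input reads, or 1.59 IP per input read (1.31 to 1.94). It was followed after 50 bases by a peak of 5040 bases with 239 IP against 193 input reads, or 1.24 IP per input read (1.02 to 1.50), so the intervals overlapped. The authors' deposited table put their enrichment at 1.18 and 2.04, above that of 1.48% and 13.8% of all peaks.

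Of the 14 non-ATPase genes, which include the 3 base chaperones, 10 held a peak. Psmd1 and Psmd2 encode the large scaffold subunits of the base. Psmd1 had the most reads of all members, in a pair of peaks near the 3' end. The upstream one (chr1:86130652-86132783) had 59791 IP against 19454 input reads, or 3.07 IP per input read (3.02 to 3.12), and the authors' deposited table put its enrichment at 3.82. The downstream one (chr1:86133637-86136989) had 53810 IP against 32001 input reads, or 1.68 IP per input read (1.66 to 1.70), and the authors' deposited table put its enrichment at 2.78. The upstream peak was thus the more enriched. The deposited table lists 2 gene identifiers for it and 3 for the other, so the reads may belong to more than 1 gene. By position, however, no other RefSeq gene span overlapped either peak. Psmd2 had fewer IP than input reads, 1719 against 2152, at chr16:20652152-20652693, or 0.799 IP per input read (0.749 to 0.851), and the authors' deposited table put its enrichment at 1.87. Psmd4, a ubiquitin receptor, had a peak of 3096 IP against 1739 input reads at chr3:95032694-95032843, ending 6 bases from its 3' end, or 1.78 IP per input read (1.68 to 1.89). Its other peak, of 5962 bases (chr3:95036645-95042606), had 2556 IP against 2668 input reads, or 0.958 IP per input read (0.907 to 1.01). For these the authors' deposited table gave an enrichment of 2.23 and 1.82.

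The lid, which holds the deubiquitinating enzyme Psmd14 and its scaffold, had peaks in Psmd7, Psmd8, Psmd11, Psmd12 and Psmd13 and none in Psmd3, Psmd6 and Psmd14. Psmd11 is known as a lid subunit that supports proteasome assembly, and its 3 short peaks lay 75 bases apart near the 3' end (chr11:80471816-80471915, chr11:80471991-80472090 and chr11:80472166-80472240). From 5' to 3' they had 283, 10164 and 373 input reads and 1810, 25468 and 265 IP reads. This made 6.40 (5.64 to 7.28), 2.51 (2.45 to 2.56) and 0.710 (0.605 to 0.834) IP per input read, and in the authors' deposited table the enrichment was 4.45, 3.21 and 1.01. The intervals did not overlap, and 2 peaks of 100 bases each differed in input reads although they were neighbours. The first lay above 90.9% of all peaks and the last above 0.859%, so this gene alone spans nearly the whole range of the members.

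Psmd7, the partner of the deubiquitinating subunit, had 31410 IP against 9455 input reads at chr8:107580381-107584241, or 3.32 IP per input read (3.25 to 3.40), and the authors' deposited table put its enrichment at 3.46. Psmd12 had 1138 IP against 510 input reads at chr11:107495737-107498044, or 2.23 IP per input read (2.01 to 2.48), and the authors' deposited table put its enrichment at 3.25. Psmd8 had 1732 IP against 1424 input reads at chr7:29174188-29174387, or 1.22 IP per input read (1.13 to 1.31), and the authors' deposited table put its enrichment at 2.15. These 3 genes fell in this order by both measures, and their intervals were separate. The highest enrichment of all members, 5.19 for Psmd13 in the authors' deposited table, rested on 40 IP against 4 input reads, or 10 IP per input read (3.61 to 38.5). That peak lay at chr7:140891687-140891886, inside both Psmd13 and the pseudogene Gm15542, and the files do not tell which of them gave the reads.

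Of the base chaperones, which help to assemble the ATPase ring, Psmd5 and Psmd10 held a peak and Psmd9 did not. Psmd10, also known as gankyrin, had 1289 IP against 1427 input reads at chrX:140948954-140952290, or 0.903 IP per input read (0.837 to 0.975), and the authors' deposited table put its enrichment at 2.32. Psmd5 had 141 IP against 59 input reads at chr2:34852259-34854376, or 2.39 IP per input read (1.75 to 3.30), and the authors' deposited table put its enrichment at 2.96. The wide interval of Psmd5 follows from its few reads.

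Among the activators the nuclear cap Psme3 had the strongest peak, with 8956 IP against 2171 input reads at chr11:101317211-101317375. This was 4.13 IP per input read (3.94 to 4.33), and the authors' deposited table put its enrichment at 4.20, above 85.7% of all peaks. Psme4, which encodes a large nuclear activator, had a peak of 572 IP against 393 input reads after its start (chr11:30771801-30771975). Its other peak, near its 3' end, had 268 IP against 393 input reads and also met the overlap part of the rule for Erlec1. These were 1.46 (1.28 to 1.66) and 0.682 (0.582 to 0.799) IP per input read, with an enrichment of 1.56 and 1.90 in the authors' deposited table, so reads and deposited values ordered them differently. The interferon-induced activators Psme1 and Psme2, and Psme2b, had no peak. The inhibitor Psmf1 had 1356 IP against 575 input reads at chr2:151717812-151718411, or 2.36 IP per input read (2.14 to 2.60), and the authors' deposited table put its enrichment at 2.82.

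The core assembly chaperones held a peak in 1 of 4 genes, Psmg3, with 55 IP against 39 input reads at chr5:139823592-139823816. This was 1.41 IP per input read (0.919 to 2.18), and the authors' deposited table put its enrichment at 1.68. The peak carried 2 gene identifiers. Psmg1, Psmg2 and Psmg4 had none. Of the genes that only share the prefix, Psmc3ip, which acts in meiotic recombination, had 2252 IP against 855 input reads, and the authors' deposited table put its enrichment at 3.23. Psme3ip1, which encodes a binding partner of the Psme3 product, had 5 peaks with 607 to 1990 input reads, 1.07 to 1.68 IP per input read and an enrichment from 2.01 to 2.44 in the authors' deposited table, all in the lower part of the range of all peaks.

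**Figure D3:**
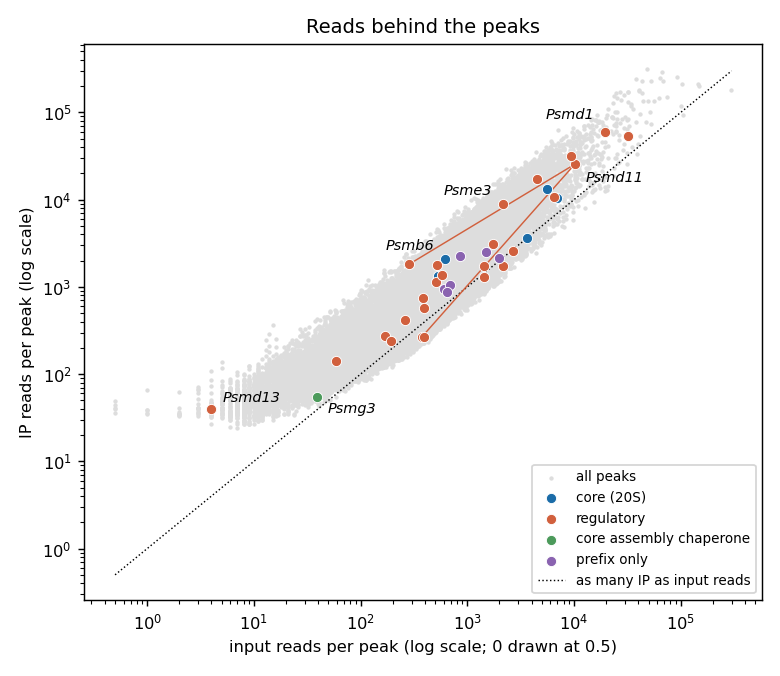
IP reads are plotted against input reads for every peak, both on log axes, with all 21195 peaks in grey and proteasome peaks in colour; the dotted line marks as many IP as input reads. The line joining the Psmd11 peaks runs from 283 to 10164 and back to 373 input reads, and Psmd1 lies highest among the members.

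As a group the 37 peaks of all members, 6 of them from Psmc3ip and Psme3ip1, were of low to middling strength. All 37 had an adjusted p under 0.05 in the authors' deposited table, as did 100.0% of all peaks after rounding, so that threshold does not separate them. Their median enrichment in the authors' deposited table was 2.78, against 3.06 for all peaks, and 14 of 37 lay above the latter (37.8%, background 50%). Among the strongest 25% of all peaks were 6 of the 37 (16.2%), and among the weakest 25% were 16 (43.2%). Without Psmc3ip and Psme3ip1 the median was 2.84, and 13 of 31 peaks (41.9%) lay above 3.06. Of those 31, 6 (19.4%) were among the strongest 25% and 12 (38.7%) among the weakest 25%. The 19 peaks of Psmc and Psmd subunits of the regulatory particle had a median of 3.21, with 10 (52.6%) above 3.06 and 7 (36.8%) among the weakest 25%. Of the 5 core peaks 2 lay above 3.06. Fewer IP than input reads were found in 6 of 37 peaks (16.2%, background 11.3%), in Psmb1, Psmd2, Psmd4, Psmd10, Psmd11 and Psme4. Over all peaks the summed reads gave 2.71 IP per input read.

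Taking the strongest peak of each gene, the median over the 25 members was 2.96, against 3.51 over the 9680 protein-coding genes with a peak, both from the authors' deposited table, and 7 members lay above the latter. For regulatory genes the median was 3.25 (17 genes, 1.87 to 5.19) and for core genes 2.84 (5 genes, 1.97 to 4.45), or 2.92 without Psmb10, in the authors' deposited table. The regulatory median and range include Psmd13, whose 5.19 came from a peak inside a pseudogene with 4 input reads. The next highest regulatory gene was Psmd11, at 4.45 in the authors' deposited table. The ranges overlapped over most of their length, so core and regulatory genes were not separated by the strength of their peaks. Of the members with a peak 7 had 2 or more (28.0%, background 50.6%). These were Psmc1, Psmc2, Psmd1, Psmd4, Psmd11 and Psme4 on the regulatory side, and Psme3ip1, while each core gene with a peak had 1. The strongest peak is picked from more peaks in genes that hold more. With the mean over each gene's peaks instead, the median was 2.89 over the members and 3.09 over all protein-coding genes with a peak.

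Proteasome peaks had a shorter median span than all peaks, and many lay at the 3' end. The median peak spanned 425 bases, against 891 for all peaks. Of 36 peaks with their midpoint inside the gene 18 lay in the last of 10 equal bins (50%, background 36.9%), 3 of 4 for core and 11 of 25 for regulatory genes. In the first bin lay 3 (8.33%, background 9.35%), those of Psmc1, Psmc6 and Psme4. A 3' edge within 10 bases of the annotated 3' end, a distance chosen after the values were seen, was found for 7 of 37 peaks (18.9%, background 8.45%), in Psma4, Psmb7, Psmc2, Psmd4, Psmd7, Psmd8 and Psmd12. Positions were taken along the strand of the peak. Psmb1, Psmb7, Psmc3 and Psmd7 had no RefSeq strand to compare, so the places given for their peaks throughout rest on the peak strand alone. Gene spans include introns, and whether a peak lay in an exon, an intron or a UTR was not analysed here.

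**Figure D4:**
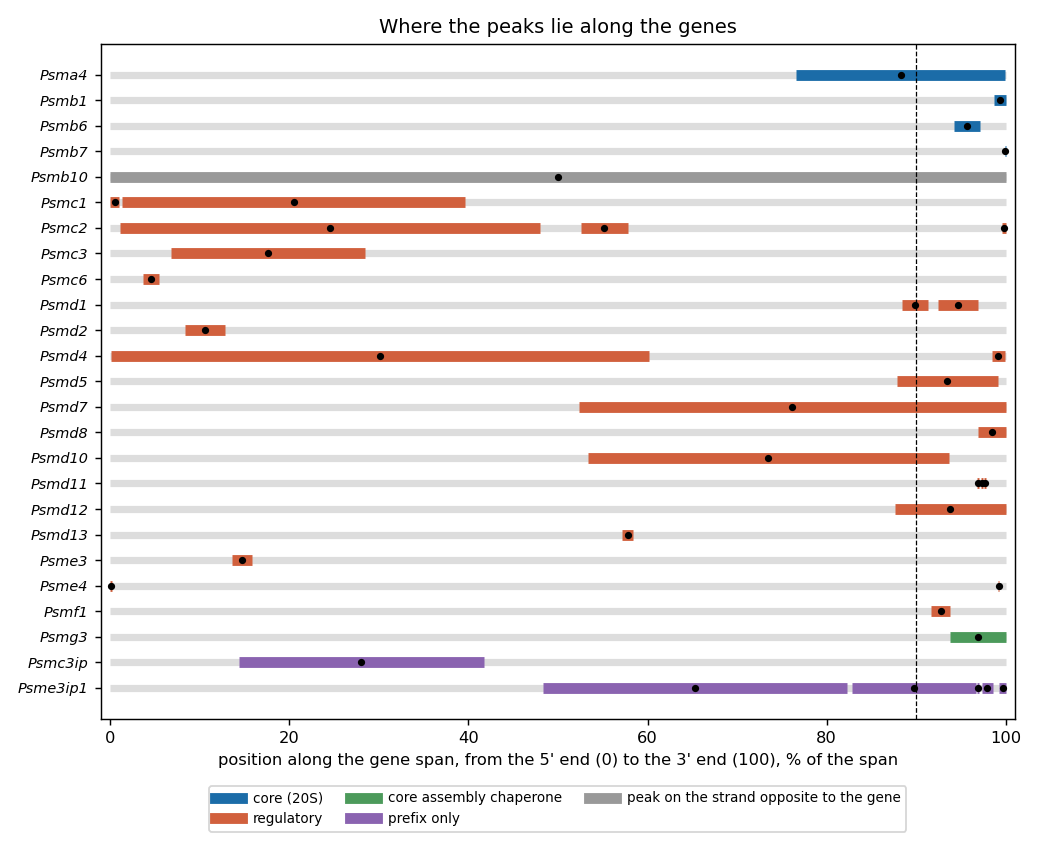
Each row is a gene with a peak, drawn from the 5' end (0) to the 3' end (100) in percent of its span, with peaks as coloured bars clipped to the gene and their midpoints as black dots; the dashed line marks the start of the last of 10 equal bins. The peaks of core genes lie in the last part of the gene except for the opposite-strand peak of Psmb10, while Psmc3, Psmc6, Psmd2 and Psme3 have their peak in the first part of the gene.

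Genes that form part of, assemble, feed or induce the proteasome without carrying a Psm symbol held a peak in 16 of 23 cases (69.6%). This compares with 44.2% of all protein-coding genes, and the median span of the 23 was 20.4 kb. Reads and enrichment given for these genes are those of the strongest peak of each. The transcription factor Nfe2l1, which induces proteasome genes when the proteasome is inhibited, had 47606 IP against 9111 input reads in 1 of its 3 peaks, and the authors' deposited table put its enrichment at 3.92. Ddi2, the protease that activates it, had 13871 IP against 3460 input reads, with 3.91 in the authors' deposited table. Among deubiquitinating enzymes bound to the regulatory particle, Uchl5 had 6979 IP against 2589 input reads in the strongest of its 3 peaks and Usp14 1034 against 1792, and the authors' deposited table put their enrichment at 3.79 and 2.06. The ubiquitin ligases Ube3a and Ube3c had an enrichment of 4.74 and 2.55, and the shuttle factors Ubqln4, Ubqln2 and Rad23b 3.36, 2.88 and 2.40 in the authors' deposited table. For the polyubiquitin gene Ubb the enrichment was 3.76, and for Zfand5, Akirin2, Ecpas and Zfand2a 3.08, 2.92, 2.56 and 2.14 in the authors' deposited table. The enrichment of 5.39 for the segregase Vcp in the authors' deposited table rested on 36 IP against 4 input reads. The ubiquitin receptor Adrm1 and the small subunit Sem1 had no peak. Both are subunits of the regulatory particle but, lacking a Psm symbol, are not among the 26 regulatory genes counted above. The maturation factor Pomp, along with Ngly1, Txnl1 and Ubqln1, had no peak either.

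Other gene groups set beside the proteasome ranged widely. A peak was held by 17 of 84 cytosolic ribosomal protein genes (20.2%, median span 3.17 kb), 1 of 9 genes of the Cct chaperonin, another barrel-shaped complex (11.1%, 12.9 kb), and 40 of 56 ubiquitin-specific protease genes (71.4%, 48.0 kb). The core particle at 26.3% was near the first of these and the regulatory side at 65.4% near the last, without a test. In the authors' deposited table the strongest peaks had a median enrichment of 2.37 for ribosomal protein genes and 3.89 for ubiquitin-specific proteases, with the proteasome at 2.96 between them.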

How the data were processed

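The members and lists were chosen with earlier results of these data known. Per the submitters' processing notes, STAR 2.5.2a, Trimmomatic 0.32, bcl2fastq 2.17.1.14 and the builds GRCm38.p6 and GRCh38.p13 were named, with no role stated. Neither the peak caller nor the counting tool is stated. The deposited counts are whole reads per peak, per the file headers, and whether they are sums or means over libraries is not stated. The deposited log2 fold change was read as IP over input, and the deposited p-values (raw and adjusted) as those of the same contrast. The test and its normalization are not stated. In all 21195 rows the authors' score matched the adjusted p on a minus log2 scale.

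Peaks were assigned to RefSeq gene spans (GRCm38.p6) by position with Python 3.11.15, pandas 2.3.3 and scipy 1.17.1, as a rule for all 21900 protein-coding genes; the assignment was checked on planted peaks. RefSeq promoter windows gave the strand and sequence for 43 of 51 members. Ratios are IP over input reads with exact Clopper-Pearson 95% intervals, which cover counting error only, since PCR copies are not independent molecules. All members were named, with reads and enrichment for those with a peak, except that Psme3ip1 has ranges of input reads, ratio and enrichment. Coordinates or ratios are left out for some peaks. Of 25 genes listed as other proteasome genes, 23 matched a RefSeq symbol. Some genes of this and the marker lists are counted but not reported here by name. The edgeR comparison of knockout with control was not run, because no column belongs to a library.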

Additional observations from a re-analysis of the deposited data

How the results depend on the processing

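No paired analysis was possible because the columns carry no library, genotype or replicate number, so the fit of knockout against control and its alternatives (DESeq2, no filter on low counts, replicates left out) were not run either. With only peaks of at least 50 input reads, 23 members (45.1%), 5 core (26.3%) and 16 regulatory genes (61.5%) had a peak, against 41.7% of all protein-coding genes. Of 46 alternative values 36 kept within 1.5 times a count, or the same median. With only peaks whose log2 fold change was at least the median, 12 members (23.5%), 2 core (10.5%) and 9 regulatory genes (34.6%) had a peak, against 29.9% of all protein-coding genes. The median of the strongest peaks was then 3.85, since weaker peaks are left out by construction. That median (2.96) was 2.89 as a mean over each gene's peaks, 2.90 with any overlap, and 3.08 with 50% of the peak inside the gene, with peaks of no other protein-coding gene, or on the RefSeq strand. The last 3 settings each leave out Psmb10. As a log2 ratio of reads (pseudocount 0.5) it was 1.24, which is another scale. The RefSeq strand, peaks of no other gene of any biotype and leaving out the genes that only share the prefix were added after seeing the data. So was a narrower regulatory list, the Psmc and Psmd genes for subunits of the regulatory particle. Of these 12 of 17 had a peak (70.6%), against 44.2% of all protein-coding genes. Adrm1 and Sem1, subunits without a Psm symbol and without a peak, are not in that list. Depth limits Psmd13, Psmg3 and Psmd5, whose peaks had 4, 39 and 59 input reads.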

Other observations

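Of 6 pseudogenes of the family in the RefSeq table, Psmb7-ps2 (chromosome X) overlapped a peak, and Psmb5-ps, Psmb6-ps, Psmb6-ps2, Psma5-ps and Psmb7-ps1 did not. The Psmb7-ps2 peak, chrX:8105817-8106266 on the plus strand, had 602 IP against 133 input reads, and the authors' deposited table put its enrichment at 4.01. That of Psmb7 itself was 2.65 in the authors' deposited table. Whether reads matching both the gene and its copy were counted is not stated.

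Across the proteasome peaks the enrichment (deposited log2 fold change) lay above the log2 ratio of reads, taken with a pseudocount of 0.5, by 0.51 to 2.93. The median of this gap was 1.88, the same as over all peaks after rounding. The order of peaks by one measure is therefore not that by the other, as for Psmc3 and Psmc6.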
